A study of Homo sapiens with 6 samples.

Results

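The genes of cell-cell junctions were followed in HK2 cells after knockdown of OCRL, a phosphoinositide 5-phosphatase of endosomes and the gene mutated in Lowe syndrome. HK2 is an immortalised line of human proximal tubule epithelium. Cells at 30% confluence received OCRL siRNA (3 arrays) or a non-targeting siRNA (3 arrays), both with the transfection reagent Dharmafect 4, and RNA was taken after 96 h from experiments described as independent. One siRNA treatment of OCRL was used, so an effect of the OCRL siRNA on other genes and an effect of lower OCRL cannot be told apart. A list of 38 genes of cadherins and catenins, desmosomes, tight junctions, gap junctions and nectins was read out, and 33 of them were measured by a probe set carrying their symbol alone. CTNND1 (the p120 catenin gene) shares all 3 of its probe sets with a second, read-through symbol, and CDH4, CDH13, F11R and GJB2 have no probe set under their symbol here. These 5 genes were not analysed here. Where a gene has several probe sets, the one brightest on average over the 6 arrays stands for it.

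Epithelial cells are held together by several junctions that differ in their membrane proteins and in the cytoskeleton they join. In adherens junctions, cadherins bind one another across the cell gap and are tied to actin through beta- and alpha-catenin, and nectins form a parallel set of contacts. Desmosomes use the desmosomal cadherins (desmogleins and desmocollins) with plakoglobin, plakophilins and desmoplakin to anchor intermediate filaments. Tight junctions seal the paracellular space with claudins and occludin on ZO scaffolds, and the claudins present set how leaky the seal is; the proximal tubule is a leaky epithelium. Gap junctions are channels of connexins between neighbouring cells. The kidney tubule is known for an unusual cadherin makeup, with N-cadherin (CDH2) and K-cadherin (CDH6) in the proximal tubule and E-cadherin (CDH1) mainly in later segments.

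The listed junction genes were lower more often than higher after OCRL siRNA. Of the 33 measured, 13 fell, 1 rose and 19 did not pass a limma test at an adjusted p of 0.05 (a gene that passes is said below to be called). The 13 lower genes are 39.4% of those measured, beside 10.5% called lower among 11963 genes read the same way. The list was chosen with earlier results of these data known, so its shares are a description and not a test. In a wider list of junction genes, 62 of them measured, 11.3% were called lower. The 1 higher gene is 3.03%, beside 15.5% called higher among all genes, and in either direction 42.4% were called, beside 26.0% of all genes. The median log2 difference (OCRL siRNA minus control siRNA) was -0.14 over the 33 genes and 0.00050 over all genes. By the chosen probe sets, a fall or rise of at least 1.5-fold was found in 5 members, beside 4.20% of all genes. These were CDH6, CXADR, EPCAM, DSC3 and PKP2, each lower. The other probe sets of CDH6, DSC3 and PKP2 gave smaller falls. The groups were fully separate in 17 members that were lower and 2 that were higher, beside 19.8% and 25.1% of all genes. In bulk RNA, fewer cells of a type and less RNA per cell cannot be told apart.

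**Figure D1:**
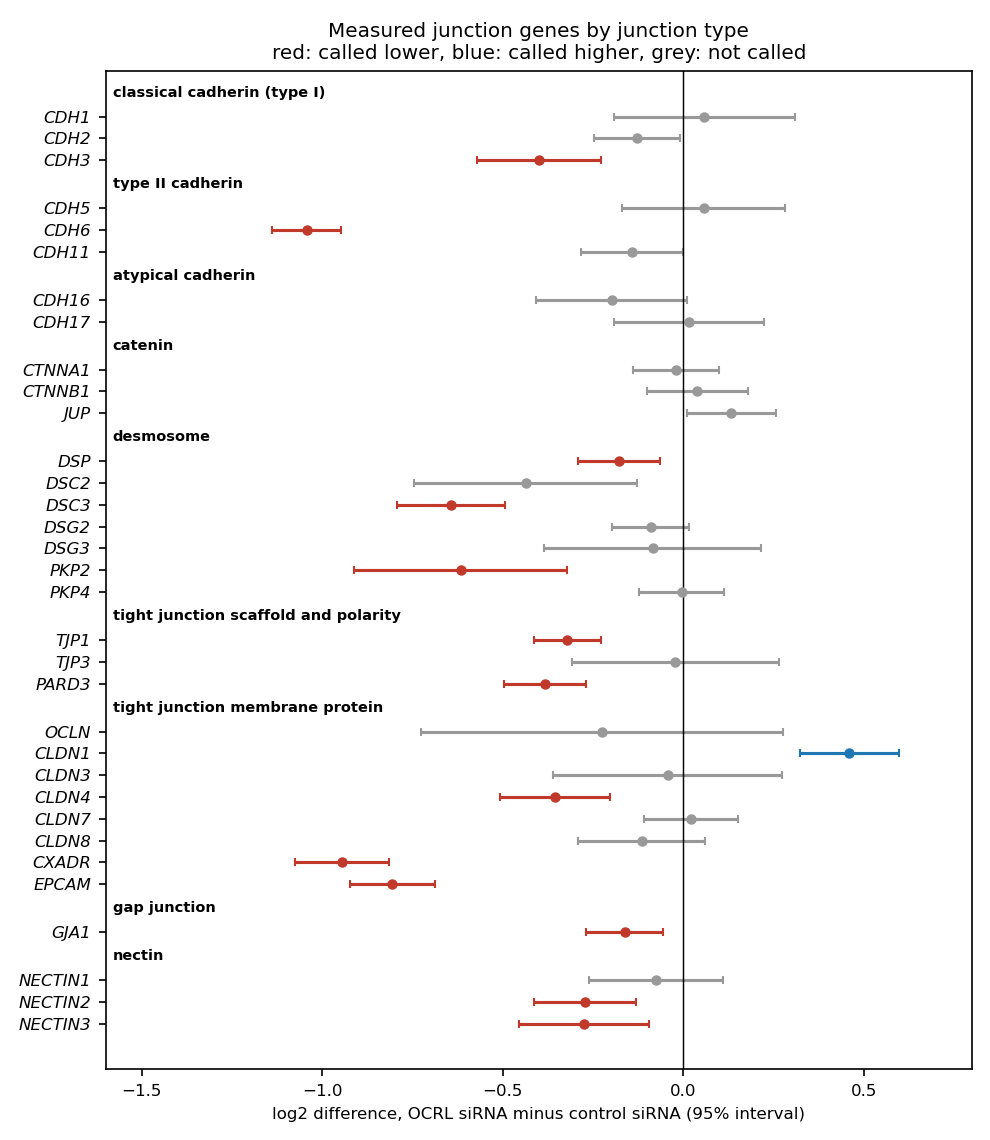
Log2 difference of each of the 33 measured junction genes (x axis, OCRL siRNA minus control siRNA, limma, n = 3 arrays each) with its 95% interval, grouped by junction type (y axis). Called falls are red, the called rise is blue and genes that did not pass are grey; 13 intervals in red lie left of 0 and the 1 in blue, that of CLDN1, lies right of it.

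The arrays matched their labels at OCRL itself. Its brighter probe set was at 7.52, 7.49 and 7.40 (log2 intensity) with OCRL siRNA, against 9.49, 9.48 and 9.50 with control siRNA, 4.06-fold lower by limma (log2 difference -2.02, SE 0.0480 and adjusted p = 1.24e-05). A second, dimmer OCRL probe set read 6.42, 6.77 and 6.70 with OCRL siRNA, against 7.52, 7.73 and 7.66 with control siRNA, 2.01-fold lower (-1.01, SE 0.102 and adjusted p = 7.64e-04). Over all 22215 probe sets 5137 were called (23.1%), 2939 higher and 2198 lower, or 2274 higher and 3138 lower once the array medians were set equal. Markers of the proximal tubule were only partly present: the endocytic receptor megalin (LRP2) averaged 3.81 with OCRL siRNA and 3.99 with control siRNA, below the lower quartile of every array, while the bicarbonate cotransporter gene SLC4A4 (9.85 with OCRL siRNA, 10.93 with control siRNA) and the scaffold gene PDZK1 (9.97 with OCRL siRNA, 10.79 with control siRNA) lay above the median probe set and fell. SLC3A1 also lay above the median probe set but rose (7.62 with OCRL siRNA, 7.22 with control siRNA, limma adjusted p = 0.0101). ANPEP, below the lower quartile of every array, rose as well (4.80 with OCRL siRNA, 4.24 with control siRNA, adjusted p = 0.0222). Of the 12 proximal tubule markers measured, 2 rose and 2 fell, or 16.7% each, beside 15.5% and 10.5% of all genes. Their summed linear intensity was 2497 to 2515 with OCRL siRNA and 4222 to 4335 with control siRNA. Limma called 0 of 6 endothelial markers (2 at an unadjusted p under 0.05) and 0 of 4 leukocyte markers (0 at an unadjusted p under 0.05). Their summed intensities were 249 to 255 with OCRL siRNA, against 230 to 267 with control siRNA, for the endothelial markers, and 149 to 152 with OCRL siRNA, against 147 to 174 with control siRNA, for the leukocyte markers. Of 7 fibroblast markers 1 fell (LUM, the matrix proteoglycan lumican, log2 difference -0.61), with sums of 894 to 905 with OCRL siRNA and 1065 to 1202 with control siRNA. Of 7 markers of other nephron segments 1 fell (PODXL, podocalyxin, -0.51), with sums of 496 to 521 with OCRL siRNA and 633 to 671 with control siRNA. Linear sums weigh the brightest genes most, here SLC4A4 and PDZK1, LUM, and PODXL, all of which fell. By mean log2 value the proximal tubule markers overlapped (6.11 to 6.21 with OCRL siRNA, 6.19 to 6.31 with control siRNA). Fibroblast markers were at 6.43 to 6.48 and 6.52 to 6.61, and other nephron markers at 5.18 to 5.21 and 5.30 to 5.37, in the same order. The sums of the proximal tubule, fibroblast and other nephron markers were thus lower in the arrays in which junction genes fell, while those of the endothelial and leukocyte markers overlapped. The part of these markers in those falls was not tested.

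Among the cadherins, CDH6 and CDH3 fell. CDH6, a type II cadherin of the proximal tubule, was at 11.21, 11.24 and 11.19 (log2 intensity, probe set 214803_at) with OCRL siRNA, against 12.28, 12.24 and 12.25 with control siRNA. The groups lay far apart, while the arrays within a group were nearly equal. This was a fall of 2.06-fold (95% interval 1.93 to 2.20, log2 difference -1.04, SE 0.0405, limma adjusted p = 3.22e-05). It was the largest among the 33 genes by their chosen probe sets. P-cadherin, CDH3, a classical cadherin of basal epithelia, was at 5.72, 5.92 and 5.79 with OCRL siRNA and 6.13, 6.32 and 6.19 with control siRNA. All OCRL siRNA arrays were lower, by 1.32-fold (log2 difference -0.40, SE 0.0726, adjusted p = 0.00837).

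The size of the CDH6 fall depended on the probe set. CDH6 has 5, all lower in every OCRL siRNA array than in every control array, and 3 of them passed the test. The chosen 214803_at and 205532_s_at were about equally bright, at means of 11.74 and 11.73 over the 6 arrays, yet the second gave only a fall of 1.27-fold (log2 difference -0.35, 95% interval -0.47 to -0.23, adjusted p = 0.00370). By 205533_s_at the log2 difference was -0.44 (adjusted p = 0.000762), and by 210602_s_at and 210601_at it was -0.13 and -0.10 (adjusted p = 0.0949 and 0.138). The log2 value of 214803_at exceeded the mean of the other 4 probe sets by 0.99 ± 0.0432 with OCRL siRNA and by 1.78 ± 0.0255 with control siRNA (SD, n = 3 each). No array of one group reached the range of the other. For this gap the exact permutation test (two-sided) gave p = 0.10, the lowest that 3 arrays against 3 can reach. The mean of all 5 CDH6 probe sets gave a log2 difference of -0.41. Which transcripts each probe set reads was not analysed here.

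**Figure D2:**
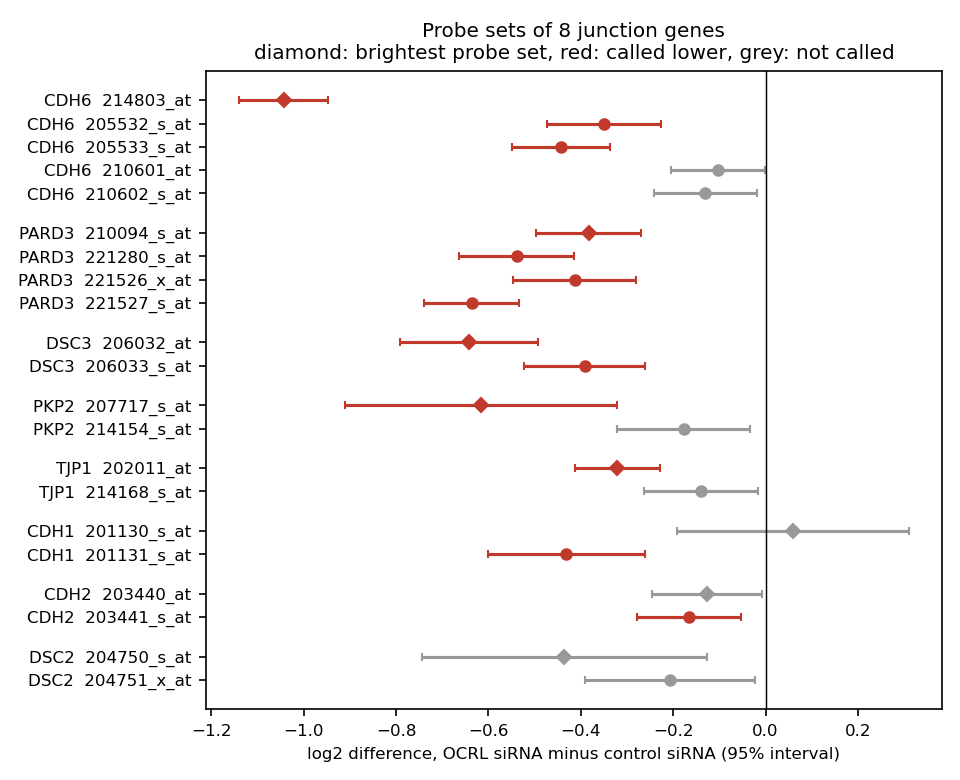
Log2 difference (x axis, OCRL siRNA minus control siRNA) and 95% interval of every probe set of 8 junction genes (y axis, gene and probe set). Diamonds mark the brightest probe set of a gene, red marks called falls and grey marks no call; the 5 CDH6 probe sets run from -1.04 to -0.10, whereas the 4 PARD3 probe sets are all called.

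The other cadherins did not pass the test by their chosen probe set. N-cadherin, CDH2, was at 12.24, 12.19 and 12.18 with OCRL siRNA, against 12.40, 12.30 and 12.28 with control siRNA. These groups did not overlap but the difference was small (log2 difference -0.13, 95% interval -0.25 to -0.01, adjusted p = 0.121), and the dimmer CDH2 probe set was called lower (-0.17, adjusted p = 0.0476). E-cadherin, CDH1, was at 4.59, 4.81 and 4.63 with OCRL siRNA and 4.70, 4.40 and 4.75 with control siRNA, below the lower quartile of every array. Its groups overlapped (log2 difference 0.06, adjusted p = 0.746), although its second and still dimmer probe set was called lower (-0.43, adjusted p = 0.00571). The endothelial cadherin CDH5 averaged 4.50 ± 0.193 with OCRL siRNA and 4.44 ± 0.0368 with control siRNA (SD, n = 3 each), also below the lower quartile. Kidney-specific cadherin, CDH16, averaged 7.01 ± 0.0969 with OCRL siRNA and 7.21 ± 0.151 with control siRNA (adjusted p = 0.162), and without control replicate 1 it was called lower (log2 difference -0.28, adjusted p = 0.0462). CDH11, a cadherin of mesenchymal cells, differed by -0.14 (adjusted p = 0.140) and the intestinal cadherin CDH17 by 0.02 (adjusted p = 0.924).

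The catenins, which tie cadherins to actin, did not pass the test. Beta-catenin, CTNNB1, was at 12.93, 12.86 and 12.92 with OCRL siRNA, against 12.97, 12.83 and 12.79 with control siRNA, and the groups overlapped (log2 difference 0.04, 95% interval -0.10 to 0.18, adjusted p = 0.702). Alpha-catenin, CTNNA1, was at 12.61, 12.63 and 12.67 with OCRL siRNA, against 12.58, 12.68 and 12.71 with control siRNA (log2 difference -0.02, interval -0.14 to 0.10, adjusted p = 0.831). None of the 4 CTNNA1 probe sets passed. Both intervals exclude a fall or rise of the size given by the chosen CDH6 probe set (-1.04). The CTNNA1 interval includes the differences given by the CDH6 probe sets 210602_s_at and 210601_at (-0.13 and -0.10). Plakoglobin, JUP, which serves both adherens junctions and desmosomes, averaged 9.18 ± 0.0252 with OCRL siRNA and 9.05 ± 0.0741 with control siRNA, with no overlap (log2 difference 0.13, adjusted p = 0.114). Without control replicate 1 JUP was called higher (0.17, adjusted p = 0.0378).

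Of 7 desmosomal genes 3 fell (42.9%, beside 10.5% called lower among all genes). All 7 had a log2 difference below 0, that of PKP4 being only -0.0045, where the median over all genes was 0.00050. Plakoglobin, listed here with the catenins, is also a desmosomal gene and differed by 0.13. Desmocollin 3, DSC3, a desmosomal cadherin, was at 7.70, 7.84 and 7.88 (log2 intensity) with OCRL siRNA, against 8.41, 8.51 and 8.42 with control siRNA. The highest OCRL siRNA array was thus well under the lowest control array, a fall of 1.56-fold (log2 difference -0.64, SE 0.0628, adjusted p = 0.000663), and its second probe set was called lower too (-0.39, adjusted p = 0.00298). Plakophilin 2, PKP2, which links the desmosomal plaque to desmoplakin, was at 6.71, 6.67 and 6.88 with OCRL siRNA and 7.64, 7.17 and 7.31 with control siRNA. It fell 1.53-fold (log2 difference -0.62, SE 0.124, adjusted p = 0.0127), with control replicate 1 well above the other control arrays, and its second probe set did not pass (-0.18, adjusted p = 0.0821). Desmoplakin, DSP, the anchor of keratin filaments, was at 11.55 on each OCRL siRNA array, against 11.80, 11.71 and 11.68 with control siRNA. This fall was only 1.13-fold (log2 difference -0.18, SE 0.0473, adjusted p = 0.0360), and it missed the threshold whichever of the 6 arrays was left out (adjusted p = 0.0538 to 0.104).

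Desmocollin 2 lay just outside the threshold. DSC2 was at 7.08, 7.16 and 7.48 with OCRL siRNA, against 7.86, 7.49 and 7.67 with control siRNA. OCRL siRNA replicate 3 came close to control replicate 2, and the groups did not quite overlap (log2 difference -0.44, SE 0.130, adjusted p = 0.0533). DSC2 was called lower in 7 of the 15 other settings in which it was read and not called in 8. The 7 include those without control replicate 2 (limma adjusted p = 0.0426), without OCRL siRNA replicate 3 (0.0251) and after median centring (0.0360). Its second, dimmer probe set did not pass (log2 difference -0.21, adjusted p = 0.104). Desmoglein 2, DSG2, the desmoglein of simple epithelia, averaged 12.38 ± 0.0525 with OCRL siRNA and 12.47 ± 0.00715 with control siRNA (log2 difference -0.09, adjusted p = 0.210). The epidermal desmoglein gene DSG3 was below the lower quartile of every array, at 4.97 ± 0.163 with OCRL siRNA and 5.06 ± 0.217 with control siRNA. PKP4, a relative of p120 catenin found at several junctions, averaged 10.83 ± 0.0659 with OCRL siRNA and 10.83 ± 0.0223 with control siRNA (95% interval of the log2 difference -0.12 to 0.11), and none of its 4 probe sets passed.

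**Figure D3:**
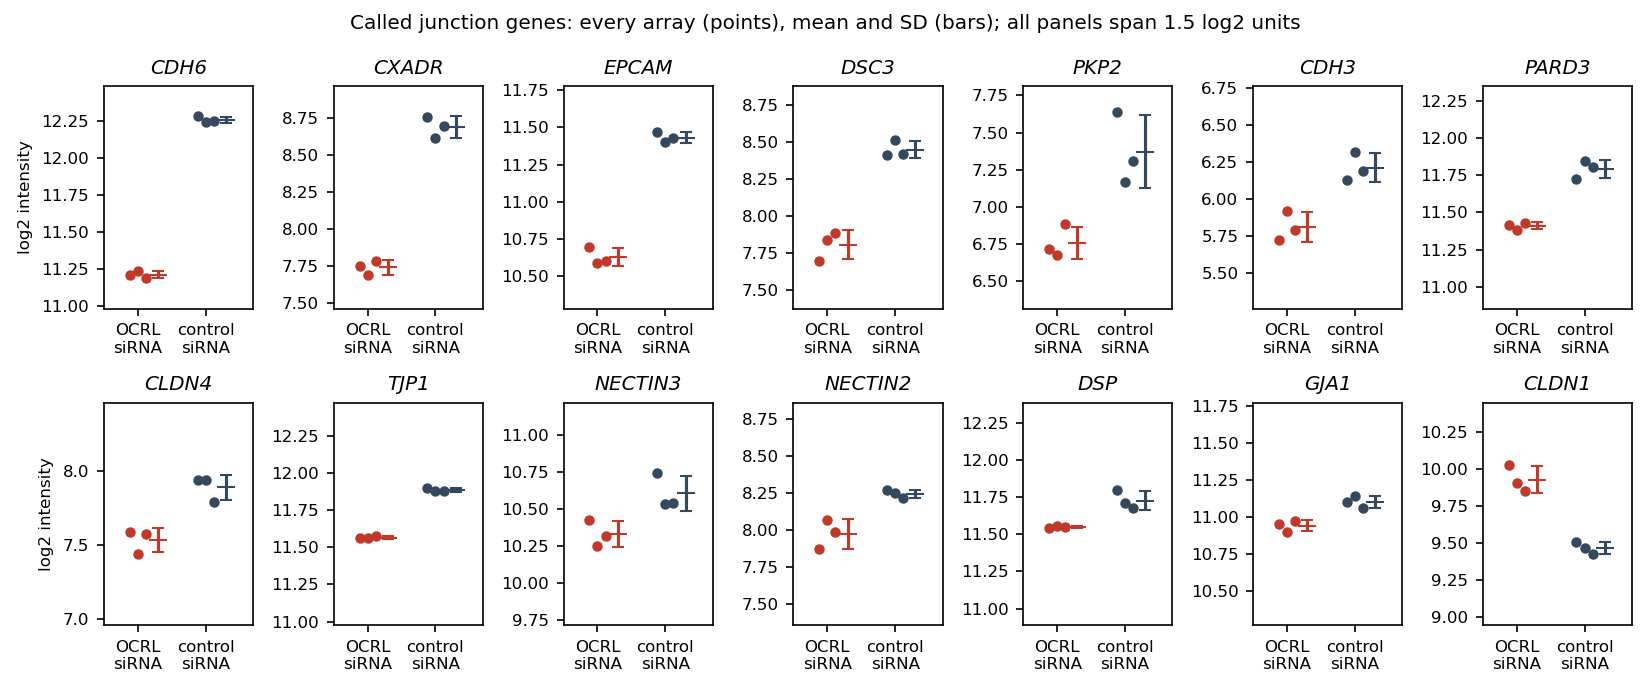
Log2 intensity (y axis, every panel spanning 1.5 log2 units) of the 14 called junction genes on each array, OCRL siRNA in red on the left and control siRNA in dark blue on the right; points are arrays and bars are the mean and SD (n = 3 each). The groups do not overlap in any panel, and CLDN1 is the only gene with OCRL siRNA on top.

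At the tight junction, both the scaffold TJP1 and the polarity gene PARD3 fell. TJP1 encodes ZO-1, which binds claudins and occludin to actin. It was at 11.56, 11.56 and 11.58 with OCRL siRNA, against 11.90, 11.88 and 11.88 with control siRNA. Arrays of a group were nearly equal, so a fall of 1.25-fold stood clear of the spread (log2 difference -0.32, SE 0.0388, adjusted p = 0.00156), though the second TJP1 probe set did not pass (-0.14, adjusted p = 0.104). PARD3 encodes a scaffold of the PAR complex, which positions junctions along the lateral membrane. Its chosen probe set was at 11.42, 11.38 and 11.43 with OCRL siRNA and 11.73, 11.85 and 11.81 with control siRNA, a fall of 1.30-fold (log2 difference -0.38, SE 0.0480, adjusted p = 0.00181). All 4 PARD3 probe sets were called lower, from -0.38 to -0.64. TJP3, the ZO-3 gene, averaged 5.87 ± 0.0507 with OCRL siRNA and 5.89 ± 0.255 with control siRNA (adjusted p = 0.927).

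The claudins went both ways. CLDN1, a sealing claudin, was at 10.03, 9.91 and 9.85 with OCRL siRNA, against 9.51, 9.47 and 9.43 with control siRNA. Every OCRL siRNA array was higher, by 1.38-fold (95% interval 1.25 to 1.51, log2 difference 0.46, SE 0.0577, adjusted p = 0.00181), and this was the 1 member called higher. CLDN4, a claudin of distal tubule and collecting duct, was at 7.59, 7.44 and 7.57 with OCRL siRNA, against 7.94, 7.94 and 7.79 with control siRNA. It fell 1.28-fold (log2 difference -0.36, SE 0.0640, adjusted p = 0.00806). CLDN3, CLDN7 and CLDN8, also known from distal segments, did not pass. CLDN7 averaged 5.47 ± 0.0404 with OCRL siRNA and 5.45 ± 0.0808 with control siRNA, CLDN3 5.51 ± 0.0210 with OCRL siRNA and 5.55 ± 0.289 with control siRNA, and CLDN8 3.53 ± 0.0340 with OCRL siRNA and 3.65 ± 0.140 with control siRNA. CLDN8 was below the lower quartile of every array. Occludin, OCLN, a membrane protein of the tight junction strands, was at 4.34, 5.03 and 4.35 with OCRL siRNA and 5.10, 4.66 and 4.65 with control siRNA, also below the lower quartile. Its groups overlapped widely (log2 difference -0.22, 95% interval -0.73 to 0.28, adjusted p = 0.517).

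The promoters of the tight junction genes with opposite changes are shown to let their sequences be compared. They come from RefSeq (GRCh38.p14) and run from 250 bases before to 50 bases after the annotated start, 5′ to 3′ on the strand of the gene. Of the 33 measured genes, 20 matched the promoter table. CLDN1, which rose, lies at chr3:190322397-190322696 on the minus strand, CLDN4, which fell, at chr7:73830746-73831045 on the plus strand, and TJP1, which fell, at chr15:29969000-29969299 on the minus strand. Capitals mark, on either strand, GGGCGG (the GC box of SP1-type factors), CAGGTG (the E-box bound by SNAIL and ZEB repressors), TGANTCA (the AP-1 element) and AACCNGGTT (the grainyhead-like element).
CLDN1: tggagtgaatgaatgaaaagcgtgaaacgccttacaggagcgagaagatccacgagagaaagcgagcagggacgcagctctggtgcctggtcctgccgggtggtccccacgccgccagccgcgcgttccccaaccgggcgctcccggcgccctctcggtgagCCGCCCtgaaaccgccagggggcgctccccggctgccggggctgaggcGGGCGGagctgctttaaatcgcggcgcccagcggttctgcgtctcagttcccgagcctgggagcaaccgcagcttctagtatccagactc
CLDN4: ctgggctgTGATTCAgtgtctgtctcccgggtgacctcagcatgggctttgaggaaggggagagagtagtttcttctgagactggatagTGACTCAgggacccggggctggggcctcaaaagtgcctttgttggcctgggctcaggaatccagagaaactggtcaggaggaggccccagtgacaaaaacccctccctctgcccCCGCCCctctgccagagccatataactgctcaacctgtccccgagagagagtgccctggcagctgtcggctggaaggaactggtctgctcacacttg
TJP1: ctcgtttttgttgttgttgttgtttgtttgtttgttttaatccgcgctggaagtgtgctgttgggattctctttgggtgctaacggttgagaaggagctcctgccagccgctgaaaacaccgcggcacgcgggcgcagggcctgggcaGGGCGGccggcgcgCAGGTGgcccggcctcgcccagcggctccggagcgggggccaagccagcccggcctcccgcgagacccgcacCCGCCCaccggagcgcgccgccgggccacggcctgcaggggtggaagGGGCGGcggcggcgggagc
The CLDN1 window held 2 GC boxes and none of the other motifs. The CLDN4 window held 1 GC box and 2 matches of TGANTCA, which read TGATTCA and TGACTCA. The TJP1 window held 3 GC boxes and 1 E-box. No 2 of the marked matches overlap. The E-box was found in 2 of 7 called-lower members, in 0 of 1 called higher and in 4 of 12 not called, beside 20.6% of 35116 promoters. TGANTCA was found in 2 of the 7, 0 of the 1 and 0 of the 12, beside 7.71%. The GC box was found in 5, 1 and 10, beside 45.0%. AACCNGGTT was found in none of the 20, beside 0.239%, and grainyhead-like sites without the spacer letter were not searched. These are matches of letters in a short window, given as a description. The median GC content was 67% for member promoters and 58.7% for all promoters, and its part in the GC box counts was not tested. Members were read by 1 promoter per gene, while the 35116 were not reduced in this way.

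Both CXADR and EPCAM, membrane proteins that accompany the tight junction, fell. CXADR, the coxsackievirus and adenovirus receptor and an adhesion protein of the JAM type, was at 7.75, 7.69 and 7.79 with OCRL siRNA, against 8.75, 8.61 and 8.69 with control siRNA. The gap between the groups was several times the range within either, a 1.93-fold fall (95% interval 1.76 to 2.11, log2 difference -0.95, SE 0.0545, adjusted p = 8.80e-05). EPCAM, an epithelial adhesion molecule that binds claudin-7 and stabilises it, was at 10.70, 10.59 and 10.60 with OCRL siRNA, against 11.47, 11.40 and 11.43 with control siRNA. It fell 1.75-fold (interval 1.61 to 1.89, log2 difference -0.81, SE 0.0491, adjusted p = 1.07e-04). Both genes have a single probe set with 1 symbol, so no second reading was at hand.

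Of the gap junction genes, connexin 43, GJA1, was measured. It was at 10.95, 10.90 and 10.97 with OCRL siRNA, against 11.10, 11.14 and 11.06 with control siRNA. The groups were separate but close, a fall of 1.12-fold (log2 difference -0.16, SE 0.0450, adjusted p = 0.0421). Like that of DSP, the call was lost whichever of the 6 arrays was left out (adjusted p = 0.0695 to 0.132).

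Nectins, the immunoglobulin-type adhesion molecules of adherens junctions, fell in 2 of 3 cases, beside 10.5% called lower among all genes. NECTIN2 was at 7.87, 8.07 and 7.99 with OCRL siRNA, against 8.27, 8.25 and 8.22 with control siRNA, 1.21-fold lower (log2 difference -0.27, SE 0.0592 and adjusted p = 0.0173). NECTIN3, which pairs with the other nectins across the cell gap, was at 10.43, 10.25 and 10.32 with OCRL siRNA and 10.74, 10.53 and 10.54 with control siRNA, also 1.21-fold lower (-0.27, SE 0.0759, adjusted p = 0.0421). Both calls were lost in some of the fits that left out 1 array, while the log2 differences kept their direction. They were -0.32 to -0.22 for NECTIN2 and -0.32 to -0.20 for NECTIN3 in these fits. NECTIN2 missed the threshold without control replicate 2 (adjusted p = 0.0548) or OCRL siRNA replicate 3 (0.0546). NECTIN3 missed it on leaving out control replicate 1 (0.0709), 2 (0.0589) or 3 (0.0682), or OCRL siRNA replicate 2 (0.121) or 3 (0.116). NECTIN1 averaged 5.92 ± 0.0251 with OCRL siRNA and 5.99 ± 0.152 with control siRNA (log2 difference -0.08, adjusted p = 0.553), and was called lower only without control replicate 1 (-0.16, adjusted p = 0.0439).

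**Figure D4:**
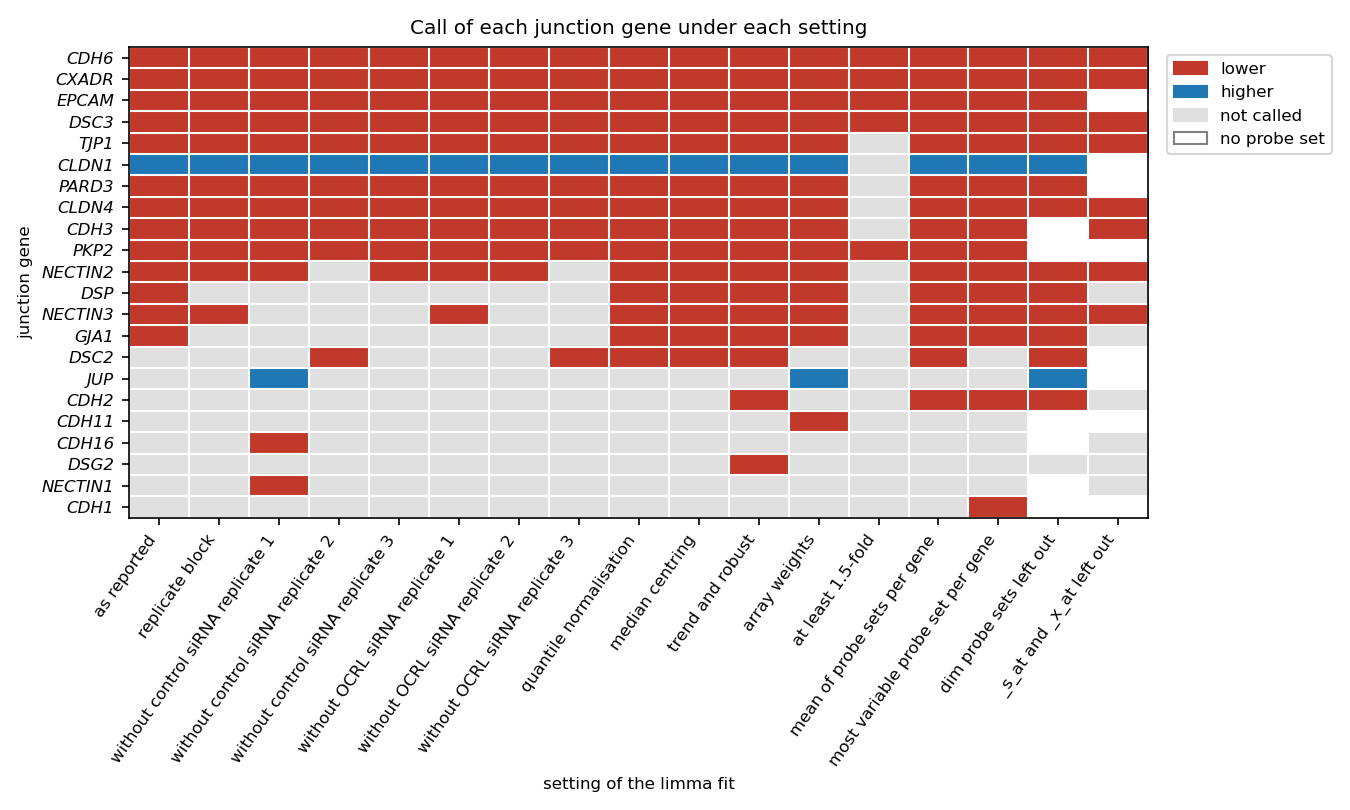
Call of 22 junction genes (rows, ordered by adjusted p) under each setting of the limma fit (columns, first as reported): red is lower, blue higher, grey not called and white no probe set left. The upper 10 genes hold their colour in each column where they have a probe set, apart from the 1.5-fold minimum, which leaves 5 genes, while DSP and GJA1 lose theirs in all 6 columns that leave out an array.

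Changes in other junction genes were read from a wider list of 90, of which 62 were measured. In it 4 rose, 7 fell and 51 did not pass, or 6.45% and 11.3%, beside 15.5% and 10.5% of all genes, with a median log2 difference of -0.05. After median centring 3 were higher and 9 lower. Those that fell included DST, a plakin of hemidesmosomes (log2 difference -0.57, SE 0.0591, adjusted p = 8.37e-04), AMOTL2, an angiomotin that couples cadherins to actin (-0.49, SE 0.0485, adjusted p = 7.28e-04), and DLG1, a basolateral polarity scaffold (-0.30, adjusted p = 0.00306). The desmosome-associated gene PERP (-0.46, adjusted p = 0.00166) and the kinase gene PKN2 (-0.36, adjusted p = 0.00135) fell as well. The DST call was lost when probe sets of types _s_at and _x_at were left out together (log2 difference -0.11, adjusted p = 0.586).

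Those that rose were CLDN11, a claudin known from myelin and Sertoli cells (log2 difference 0.71, SE 0.0856, adjusted p = 0.00152), the junctional adhesion molecule gene JAM2 (0.44, SE 0.0448, adjusted p = 7.99e-04), the cornified envelope gene EVPL (0.25, adjusted p = 0.0205) and the alpha-catenin relative CTNNAL1 (0.20, adjusted p = 0.0175). CLDN11 averaged 8.52 with OCRL siRNA and 7.81 with control siRNA, and was thus the second claudin to rise beside CLDN1. The calls of CTNNAL1 and EVPL were lost without control replicate 2 (adjusted p = 0.0599 and 0.0628), without OCRL siRNA replicate 1 (0.0569 and 0.0624) and without OCRL siRNA replicate 3 (0.0707 and 0.0519), which left 2 genes higher. CTNNAL1 also lost its call without control replicate 3 (0.0645), and EVPL without OCRL siRNA replicate 2 (0.0671). None of 8 further connexin and pannexin genes was called by limma, with 1 at an unadjusted p under 0.05.

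**Figure D5:**
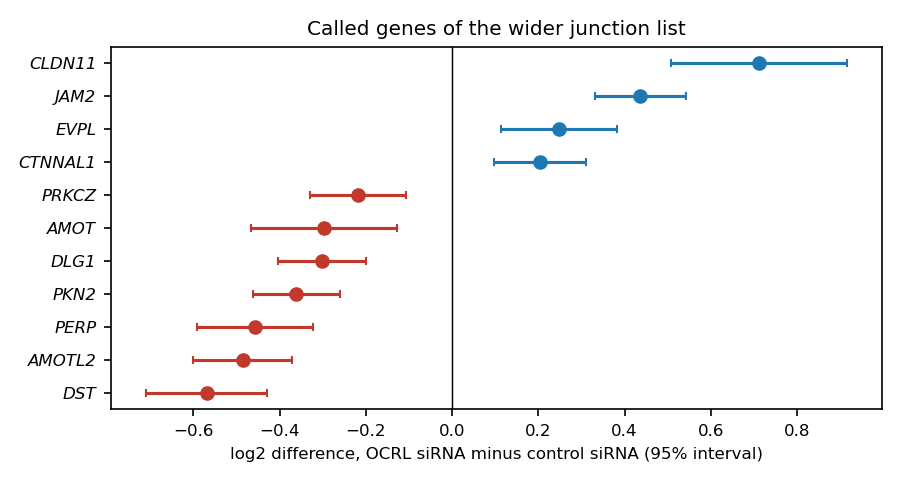
Log2 difference (x axis, OCRL siRNA minus control siRNA, n = 3 arrays each) with its 95% interval for the 11 called genes of the wider junction list (y axis). The 4 that rose are blue, led by CLDN11, and the 7 that fell are red, with DST lowest.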

How the data were processed

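Biotin-labelled cRNA from total RNA was read on Affymetrix arrays of 1 colour, 1 array per sample, per the labels' protocols. The authors deposited log2 intensities per probe set, already normalised. Per the submitters' processing notes this was done with affy and RMA; their versions are not given in the sources used here. RMA is meant to bring arrays to a like distribution, which can remove a shift shared by most genes, and it compresses dim differences. The deposited arrays were not fully equal: their medians over tested probe sets were 7.27 to 7.30 with OCRL siRNA and 7.23 to 7.24 with control siRNA. The number of arrays limits the precision. Nothing in the sources says that the labelled replicate numbers mark a shared day or culture. The labels call the replicates biological and the experiments independent, but do not say what was separate, so p-values measure the spread between these arrays.

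After 62 control probe sets were left out, 22215 were tested with limma 3.58.1 (R 4.3.3; lmFit, then eBayes, on group alone; two-sided, Benjamini-Hochberg over all 22215, threshold 0.05); SE is the moderated standard error. GEO's platform annotation gave 1 symbol for 19064 probe sets, several for 1043 and none for 2108. Symbols were checked through Entrez identifiers against RefSeq (19052 matched, 0 changed). The members, the wider junction list and the marker lists were chosen with earlier results of these data known. All measured members were named, with at most 4 called genes of largest difference from each part of the wider list. The marker genes LUM, PODXL, SLC3A1 and ANPEP were picked with their values known. Simulated arrays were used to test the fit. Alternatives were the replicate block, each array left out, quantile normalisation, median centring, trend and robust eBayes, array weights, a 1.5-fold minimum, a fit without dim probe sets, one without the _s_at and _x_at types, and the mean or most variable probe set per gene. Promoter letters were searched in Python 3.11.15; figures used matplotlib 3.10.9.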

Additional observations from a re-analysis of the deposited data

How the results depend on the processing

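Of the 14 called junction genes, 5 kept their call in every setting in which they had a probe set and 9 lost it in at least 1, and 7 of the 19 others gained one in at least 1 of the 16 settings, besides CDH1 below. A 1.5-fold minimum, read by the chosen probe set, left 0 members higher (limma, 2 at an unadjusted p under 0.05 with no minimum) and 5 lower. Of all probe sets it left 806 (3.63%). Without probe sets ending in _s_at or _x_at, 24 members could be read, 0 higher and 8 lower (CLDN1 and JUP have only such probe sets). In that setting 2348 of 11813 probe sets were called (19.9%), 1274 higher and 1074 lower. OCRL itself had no value there. Array weights and the setting with dim probe sets (mean below the median of all) left out each gave 2 members higher, the second being JUP. With array weights 14 members were lower, and 27.8% of all probe sets were called. Without dim probe sets 19 members remained, 13 of them lower, with a median log2 difference of -0.27. In that setting 50.9% of 11108 probe sets were called, 3184 higher and 2467 lower. After median centring the members' median was -0.19. The median over all probe sets was then -0.053, beside -0.0067 as deposited. With 1 array left out, 16.1% to 22% of all probe sets were called. The members called were then 1 to 2 higher and 10 to 12 lower. In the wider list they were 2 to 4 higher and 5 to 9 lower, with 1 higher and 0 lower at a 1.5-fold minimum (limma, 13 lower at an unadjusted p under 0.05) and 2 higher without _s_at and _x_at probe sets. By its most variable probe set CDH1 was called lower at -0.43, the reverse of its chosen one; both are dim. With the replicate number as a block, 1 member was higher and 11 lower. DSP (limma adjusted p = 0.0691) and GJA1 (0.0937) lost their calls, and 4571 of all probe sets were called (20.6%). In that check of pairing, deviations from the group means correlated at 0.14, 0.12 and -0.0095 between arrays of the same number, so the numbers were not taken as pairs; not every array correlated best with its own number. Quantile normalisation gave 1 member higher and 14 lower, as did median centring. Of all probe sets 23.7% were called with quantile normalisation (2516 lower) and 24.4% with median centring (3138 lower).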
